A study of Rattus norvegicus with 6 samples.

Results

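Fibroblasts of the brain's coverings and of its larger vessels were examined in single-cell gene counts from rat cerebral hemisphere. A droplet barcode was taken as a fibroblast when it held at least 1000 unique molecular identifiers (UMIs, each standing for 1 captured transcript) and at least 3 of the 7 genes Dcn, Lum, Col1a1, Col1a2, Slc6a13, Ogn and Pcolce, with at most 1 of 4 pericyte genes, 2 of 5 endothelial genes and 1 of 4 microglial genes. This rule found 193 of 42293 barcodes, out of 34039 with enough UMIs. There were 45, 39 and 33 in the 3 control libraries (NC) and 25, 25 and 26 in the 3 libraries of the carbon monoxide group (CO). The members were thus chosen by measured values, and these genes are given below as a description. The labels describe NC as negative control, without further detail, and the series design calls these rats normal controls. Per the series design, the CO rats breathed the gas in a closed chamber, first at 1000 ppm over 40 minutes and then at 3000 ppm over 20 minutes, and poisoning was accepted with impaired consciousness and over 60% carboxyhemoglobin. The tissue was digested with trypsin and strained, and which coverings stayed on the hemisphere is not stated. The sources used here do not give strain, age or the time from exposure to sampling.

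Fibroblasts of the dura, arachnoid and pia, and those around arterioles and venules, make the collagens and proteoglycans of the brain's borders. Meningeal fibroblasts also make retinoic acid and chemokines that act on the cortex below, and they carry solute transporters that set the fluid around it. Dcn and Lum encode small leucine-rich proteoglycans that bind collagen fibrils, Ogn a related protein, Col1a1 and Col1a2 the chains of type I collagen, Pcolce an enhancer of procollagen cleavage, and Slc6a13 a transporter of GABA and taurine.

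Many barcodes were near-copies of each other. Over 12666 genes with a mean count under 0.5, pairs of barcodes fell into 2 ranges of Pearson correlation of log(1 + count). Between 0.75 and 0.85 lay 17637 and 19304 pairs in the lower and upper bin, against 194 pairs between 0.65 and 0.70. Joining barcodes above a correlation of 0.68 gave 15370 sets, called profiles here, of which 11839 held 3 barcodes, 3245 held 2 and 286 held 1. The threshold was chosen because no set then exceeded 3 barcodes, so that upper size is in part a product of the choice. No profile held barcodes of both groups, and of the profiles with 3 barcodes, 22.1% lay in 3 libraries, 66.3% in 2 and 11.6% in 1. Only 1 barcode sequence was shared over all 15 pairs of libraries. The libraries of a group thus held the same profiles under different barcodes, and they are not independent samples.

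The fibroblasts showed the same structure. The 193 barcodes belonged to 73 profiles, 43 NC and 30 CO, and 79.5% of these had members in more than 1 library. Barcodes of 1 fibroblast profile correlated at 0.79 to 0.86, while barcodes of different fibroblast profiles correlated at 0.63 at most. In the 51 profiles with 3 member barcodes the total UMI count varied by a median of 1.93% (coefficient of variation), but single genes varied by far more. For genes with a mean of 100 to 1000 UMIs the coefficient of variation was 0.52, against 0.079 from counting alone. For genes with a mean of 2 to 5 UMIs it was 0.54, below the 0.60 from counting alone. What made this spread was not tested. Each profile was therefore counted once, as the mean of its member barcodes, and each group as 1 sample (n = 1 per group). No p-value is given, and 95% intervals below are exact binomial or Clopper-Pearson intervals that cover counting error only and leave out the spread between barcodes of 1 profile.

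**Figure D1:**
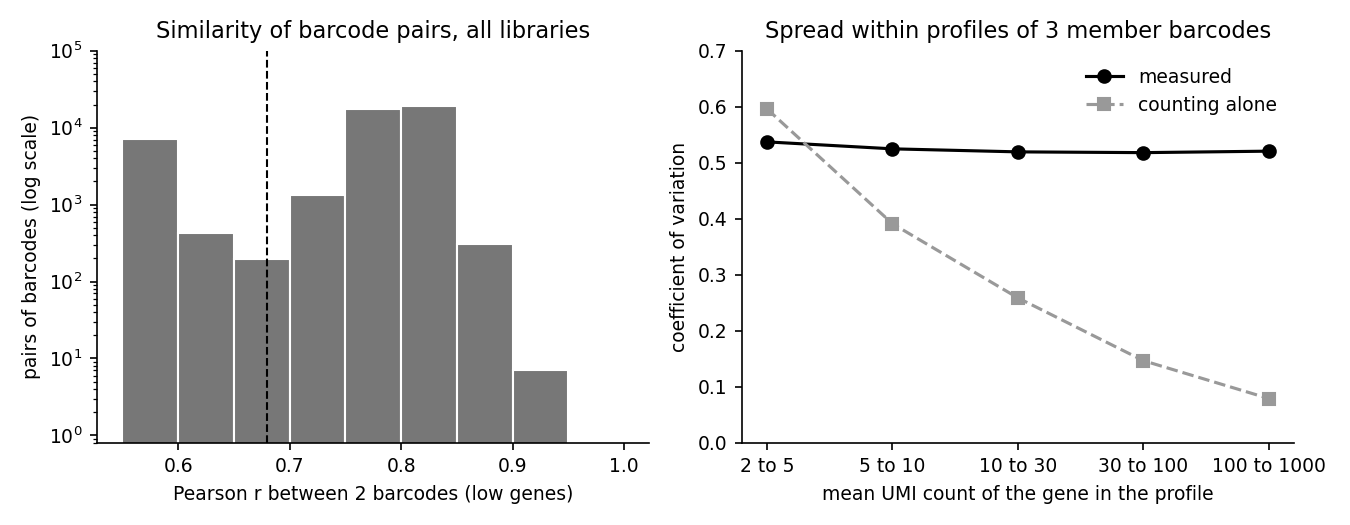
Left, the number of barcode pairs (log scale) in bins of Pearson r from 0.55 upward, all libraries together, with the dashed line at the 0.68 used for joining. Right, the mean coefficient of variation of a gene's count among the 3 barcodes of a fibroblast profile against the gene's mean count, with the value that counting alone would give as grey squares. Between the 2 ranges the count falls to 194 pairs, from 0.65 to 0.70. The measured spread stays between 0.52 and 0.54, while that from counting falls from 0.60, above the measured value, to 0.079.

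The fibroblast profiles were well covered. They held 918764 UMIs in NC and 811936 in CO, with a median of 20079 (2515 to 68153) and 24070 (1650.5 to 97955) UMIs per profile. All other barcodes of at least 1000 UMIs had a median of 5680. The profile with the most UMIs held 7.42% of the NC and 12.1% of the CO total.

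The label was checked against its markers, which the rule itself used, so these values are a description. Ogn was detected in 41 of 43 NC and 29 of 30 CO profiles, Pcolce in 40 and 28, and Col1a1 in 40 and 24. Dcn was detected in 35 and 18, Col1a2 in 32 and 25, and Lum in 13 and 8. Slc6a13, the marker most tied to perivascular and pial fibroblasts, was detected in 4 and 8. Among all other barcodes of at least 1000 UMIs, Dcn was detected in 0.355%, Col1a1 in 0.807%, Slc6a13 in 2.85% and Ogn in 2.97%. The label fibroblast is thus met by the collagen and proteoglycan genes in most profiles, and perivascular by Slc6a13 in 12 of 73. At the edge of the rule, the 43 barcodes with exactly 3 of the 7 genes had a median summed level of 1006 CPM (UMIs of a gene per 1000000 UMIs) over these genes at a median depth of 12871 UMIs. The 256 barcodes left out with exactly 2 had a median of 344 CPM at a median depth of 42446 UMIs.

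Markers of choroid plexus, oligodendrocytes or smooth muscle were high in 11 profiles. Choroid plexus markers, among them the transthyretin gene Ttr, held 26.5% to 30.3% of the UMIs in 2 NC profiles and 24.4% to 59.2% in 3 CO profiles. Oligodendrocyte markers held 2.31% to 7.79% in 3 NC profiles and smooth muscle markers 5.85% in 1 NC and 3.80% to 5.60% in 2 CO profiles. In the other 62 profiles none of these 3 lists exceeded 0.737% of UMIs. These 11 profiles held 22.1% of the NC and 26.5% of the CO UMIs. The limit of 1% that set them apart was chosen after seeing the values, and results are given with and without them. The other lists were not limited among the 62 profiles. Summed astrocyte markers had a median of 2205 CPM in NC and 1357 CPM in CO over all 73 profiles, against 732 CPM in all other barcodes, and reached 10073 CPM in a profile kept among the 62. Ependymal markers had medians of 759 and 806 CPM, against 281 CPM. Summed pericyte markers had a median of 0 CPM in both groups and reached 2386 CPM in NC and 2914 CPM in CO, against 466 CPM in all other barcodes, and 2 CO profiles held at least 3 pericyte markers. Over all 73 profiles 8 of 9 T or NK markers, 6 of 9 neutrophil markers and 5 of 9 macrophage markers were at 0 in every profile. Summed endothelial markers ranged from 0 to 1982 CPM in NC and from 0 to 1157 CPM in CO, against 3373 CPM in all other barcodes. Summed microglial markers ranged from 0 to 830.3 CPM in NC and from 0 to 7420 CPM in CO, the highest in 1 of the 11 profiles. The rule itself limited pericyte, endothelial and microglial genes, so low levels of these markers were in part set in advance. Each value for all other barcodes is a level over those barcodes together, while the fibroblast values are medians or ranges of profiles. Summed arachnoid barrier markers ranged from 313 to 5657 CPM in NC and from 0 to 3797 CPM in CO, against 1121 CPM in all other barcodes. Schwann cell markers had a median of 611 CPM in NC and 1354 CPM in CO and reached 5938 CPM among the 62. The part of any of these in the results below was not tested beyond the values given without the 11 profiles.

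Beyond the genes of the rule, 30 genes with the largest ratio of their level in the 62 profiles to that in all other barcodes were listed. They were taken from genes with at least 100 UMIs found in at least 30% of profiles, ranked after the cells were chosen, and are given without a test. The first 6 were Osr1, Cyp1b1, Igfbp6, Tnmd, Shisa3 and Serpinf1. Osr1, a transcription factor of mesenchyme, was at 101 CPM against 0.157 CPM elsewhere, and Cyp1b1, an oxidase gene, at 233 against 0.429 CPM. Igfbp6, a binding protein of insulin-like growth factors, was at 750.0 against 1.49 CPM. Tnmd, which encodes tenomodulin of tendon and ligament, was at 159 against 0.317 CPM, and Shisa3 at 1001 against 2.46 CPM. Serpinf1, which encodes the secreted protein PEDF, was at 1398 against 3.48 CPM. Rspo3 and Wnt16, both of the Wnt pathway, were at 424 against 1.10 CPM and 247 against 0.884 CPM. Other genes among the 30 were the transporter genes Slc47a1 and Slco2a1, the receptor gene Il13ra2, and Gpx2, Msln, Upk1b and Prdm6. The mesenchymal transcription factors Prrx2, Foxc2 and Twist1, also among the 30, were detected in 76.7%, 65.8% and 76.7% of all 73 profiles. The matrix genes Mfap5, Efemp1 and Col12a1 were detected in 63.0%, 69.9% and 72.6%.

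Profiles with and without Slc6a13 differed in other genes. Among the 62 profiles, the 10 in which Slc6a13 was detected (3 NC, 7 CO) shared several genes that few of the other 52 held (34 NC, 18 CO). This split was made on a gene of the rule after seeing the values, and it is a description. Slc7a11, a cystine transporter, was detected in 8 of 10 and in 2 of 52. Aldh1a2, which makes retinoic acid, was detected in 8 of 10 and in 3 of 52, and 8 profiles held both genes. Igf2, a growth factor that the meninges express, was detected in 10 of 10 and 13 of 52 and had a median of 5699 CPM (132 to 20297) in the 10 and of 0 (0 to 7894) in the 52. Ptn, a heparin-binding growth factor, had medians of 11668 and 217 CPM, and Apod, a lipid carrier, of 1114 and 0 CPM. Ptgds, the prostaglandin D synthase of the meninges, had medians of 54631 and 3519 CPM, with ranges that overlapped.

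Other genes were found mostly in the 52 profiles without Slc6a13. Mgp, which encodes the matrix Gla protein that inhibits calcification, was detected in all 52, at 701 CPM or more, and in 2 of 10 of those with Slc6a13. Gpx2, a glutathione peroxidase gene, was detected in 31 of 52 and in 0 of 10, and Fst, the gene of the activin-binding protein follistatin, in 19 of 52 and in 0 of 10. Serpinf1 was detected in 49 of 52 at a median of 1060 CPM and in 8 of 10 at a median of 128 CPM. Collagen III was common to both, as Col3a1 was detected in 51 of 52 and in 10 of 10. The profiles with Slc6a13 were the shallower, with a median of 14194 UMIs against 21530.

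**Figure D2:**
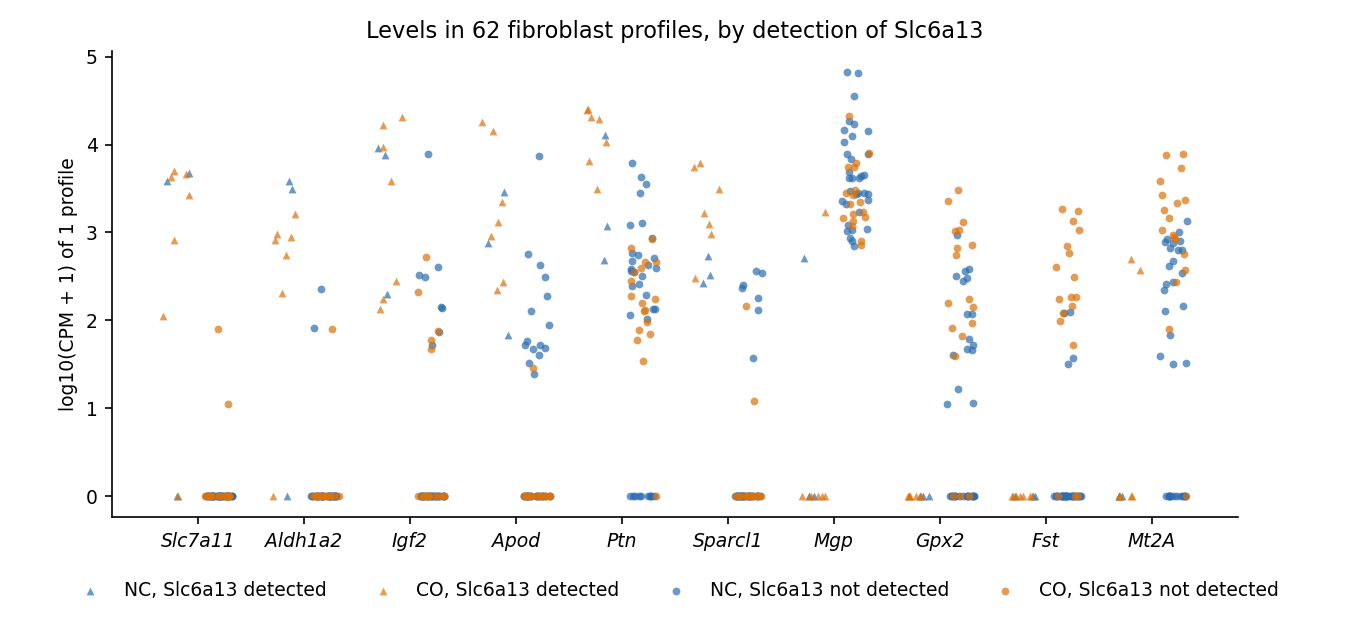
Level of 10 genes in each of the 62 profiles left after setting apart the 11 with choroid plexus, oligodendrocyte or smooth muscle markers, as log10(CPM + 1), with blue for NC and orange for CO. Triangles are the 10 profiles with Slc6a13 and circles the 52 without; Mgp lies at 701 CPM or more in all 52 circles and at 0 in 8 triangles, while Slc7a11 lies at 0 in 50 circles.

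The share of fibroblasts was lower in CO, within counting error. Fibroblasts made up 43 of 6611 NC profiles (0.650%, interval 0.471% to 0.875%) and 30 of 5856 CO profiles (0.512%, 0.346% to 0.731%), among profiles of at least 1000 UMIs. The ratio of CO over NC was 0.79 (0.48 to 1.28). By library, the share of barcodes was 0.765%, 0.678% and 0.523% in NC and 0.452%, 0.489% and 0.476% in CO, so the libraries of the groups did not overlap, although they share profiles. The 62 profiles gave shares of 0.560% and 0.427%. The number of detected rule genes also differed. Exactly 3 were found in 5 NC and 7 CO profiles, 4 in 9 and 8, 5 in 21 and 8, 6 in 7 and 2, and all 7 in 1 and 5. Dcn was detected in 81.4% of NC and 60.0% of CO profiles and Slc6a13 in 9.30% and 26.7%, so the rule did not draw on the 7 genes alike in the 2 groups.

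The comparison of CO with NC asks how fibroblast expression differed after severe CO poisoning. UMIs were summed over profiles within each group and scaled with TMM factors, which moved the median log2 ratio of all genes from -0.21 to 0.0035. Of 6971 genes with at least 30 UMIs over both groups, 426 were at least 2-fold higher in CO, which is 6.11% of genes compared, and 674 were at least 2-fold lower, which is 9.67%. Scaled by total counts, 275 were higher (3.94%) and 974 lower (14%). In the 62 profiles, 338 of 5926 genes were at least 2-fold higher (5.70%) and 515 lower (8.69%). In comparison cells chosen by their own markers, 5.18% of genes were at least 2-fold higher and 8.94% lower in pericytes, 5.92% and 6.22% in endothelial cells, and 3.08% and 5.19% in microglia. Library values of the 2 groups did not overlap for 31.9% of all genes compared, so a lack of overlap does not mark a gene out.

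**Figure D3:**
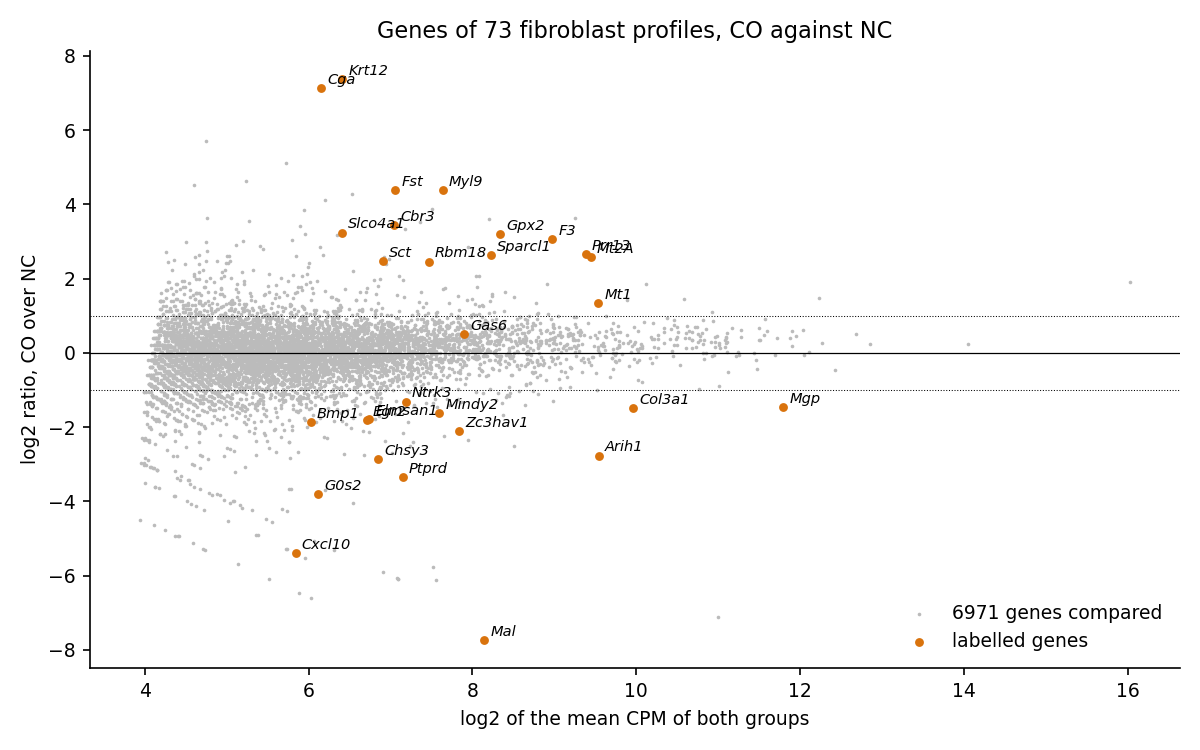
Log2 ratio of CO over NC against the log2 of the mean CPM for 6971 genes of the 73 fibroblast profiles, each point a gene, with dotted lines at 2-fold. Labelled genes are named in the text; Fst and Gpx2 lie above 3, and Mal below -7.

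The genes highest in CO against NC included those of follistatin, of a glutathione peroxidase and of a clotting factor. Fst, whose protein binds activin, was at 10.9, 9.87 and 16.7 CPM in the NC libraries and at 375, 198 and 237 CPM in the CO libraries. Over profiles this was a log2 ratio of 4.39 (3.56 to 5.37), with the 95% counting interval in brackets here and below. It was detected in 4 of 43 NC and 15 of 30 CO profiles. Every CO library lay above every NC library, which the choice of these genes required, and the libraries of a group share profiles. In microglia, with a median of 6071 UMIs, Fst was detected in 0.0287% of barcodes. Over all other barcodes of at least 1000 UMIs Fst was at 0.179 CPM in NC and 2.23 CPM in CO, a log2 ratio of 3.73 (2.69 to 4.98). Among the 52 profiles without Slc6a13, it was detected in 4 of 34 NC and 15 of 18 CO profiles, and without the 11 profiles its log2 ratio was 4.38. It was at 5.44 with each profile weighted equally and at 5.53 without the largest profile of each group.

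Gpx2, a glutathione peroxidase that reduces hydroperoxides, was at 36.6, 105 and 69.2 CPM in the NC libraries and at 614, 677 and 716 CPM in the CO libraries, a log2 ratio of 3.19 (2.81 to 3.60). It was detected in 17 of 43 NC and 15 of 30 CO profiles, and 1 profile held 50.6% of its CO UMIs. Among the 52 profiles without Slc6a13, it was detected in 16 of 34 NC and 15 of 18 CO profiles. With each profile weighted equally it was at 2.54. Cbr3, a carbonyl reductase gene, was at 21.8, 16.0 and 28.6 CPM in the NC libraries and at 218, 202 and 278 CPM in the CO libraries, a log2 ratio of 3.44 (2.80 to 4.15). Slco4a1, an organic anion transporter gene, was at 14.8, 13.6 and 20.3 CPM in the NC libraries and at 99.9, 236 and 150.2 CPM in the CO libraries, a log2 ratio of 3.24 (2.48 to 4.09). With at least 4 of the 7 rule genes required, Cbr3 was at 4.03 and Slco4a1 at 4.05.

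F3 encodes tissue factor, the protein that starts clotting and is made by cells around vessels. It was at 78.2, 138 and 111 CPM in the NC libraries and at 916, 1163 and 922 CPM in the CO libraries, a log2 ratio of 3.06 (2.77 to 3.37). With each profile weighted equally it was at 2.26, below that interval. Over all other barcodes of at least 1000 UMIs F3 was at 8.67 CPM in NC and 30.0 CPM in CO, a log2 ratio of 1.79 (1.63 to 1.96). It was at 0.93 (-0.13 to 2.03) in endothelial cells, at 0.74 (-0.0022 to 1.52) in microglia, and at -0.53 on 3 UMIs in pericytes. Its per-profile median among the 62 profiles was 88.5 CPM in NC and 740.0 CPM in CO. Prr13, a proline-rich protein gene, was at 176, 219.5 and 153 CPM in the NC libraries and at 1058, 1668 and 1127 CPM in the CO libraries, a log2 ratio of 2.66 (2.43 to 2.90). In pericytes, endothelial cells and microglia the log2 ratio of Prr13 was 0.40, 0.38 and 0.24, closer to 0 than in the fibroblasts; the difference between cell types was not tested.

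Metallothioneins, small proteins that bind zinc and copper, were higher in CO. Mt2A was at 225, 282 and 107 CPM in the NC libraries and at 941, 2070.0 and 1149 CPM in the CO libraries, a log2 ratio of 2.59 (2.36 to 2.81), and was detected in 22 of 43 NC and 21 of 30 CO profiles. Mt1 was at 459, 387 and 359 CPM in the NC libraries and at 876, 1469.8 and 1061 CPM in the CO libraries, a log2 ratio of 1.35 (1.18 to 1.53). Library values of the groups did not overlap for either gene, as for 31.9% of all genes compared. In pericytes, endothelial cells and microglia Mt2A was at 4.17, 3.20 and 1.93 and Mt1 at 1.47, 1.78 and 0.98 on the log2 scale, so both were higher in CO in all 4 cell types. Because both were higher in CO, the 250 bases before each start are shown from RefSeq (GRCr8, a later build than the Rnor_6.0 used for counting). Capitals mark matches to the core of the metal response element, searched as TGCACNC and TGCGCNC on both strands.
Mt1, chr19:10832976-10833225, minus strand: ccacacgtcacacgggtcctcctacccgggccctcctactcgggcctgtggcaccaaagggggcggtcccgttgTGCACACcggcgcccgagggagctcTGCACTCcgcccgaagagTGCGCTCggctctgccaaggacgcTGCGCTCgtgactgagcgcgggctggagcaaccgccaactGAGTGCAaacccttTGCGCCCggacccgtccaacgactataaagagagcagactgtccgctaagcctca
Mt2A, chr19:10838709-10838958, minus strand: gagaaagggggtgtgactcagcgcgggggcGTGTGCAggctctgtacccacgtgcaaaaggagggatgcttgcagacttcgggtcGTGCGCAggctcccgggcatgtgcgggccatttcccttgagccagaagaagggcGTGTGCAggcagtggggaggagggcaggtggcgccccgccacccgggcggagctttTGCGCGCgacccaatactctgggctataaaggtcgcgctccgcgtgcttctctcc
The Mt1 window held 6 matches and the Mt2A window 4, none overlapping. Of 33469 promoter windows of this length, 20.6% held at least 1 match, 0.266% at least 4 and 0.0269% at least 6. A match is a run of letters and does not show binding.

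The same rule also named genes that rest on few profiles. Krt12, a keratin gene, was detected in 1 NC and 4 CO profiles, and 1 of these held 85.1% of its CO UMIs. Cga, a subunit of pituitary hormones, was detected in 1 and 4 profiles, with 67.6% of its CO UMIs in 1, and in microglia, which do not make it, it was counted at 34.8 and 17.6 CPM in NC and CO. Myl9 and Crip1 were at log2 ratios of 4.38 and 2.84, but the 2 CO profiles with smooth muscle markers held 93.1% and 81.0% of their CO UMIs. Mt3, a brain metallothionein gene, was at 3.17, and the same 2 profiles held 74.2% of its CO UMIs. Without the 11 profiles, Crip1 was at 0.93, and Myl9 and Mt3 had fewer than 30 UMIs over both groups and were not compared. Leaving out CO replicate 3 gave 3.64 for Myl9 and 2.38 for Mt3. Sparcl1, a secreted matrix protein gene, was at 2.64, and at 1.56 with each profile weighted equally. The 2 CO profiles with smooth muscle markers, both without Slc6a13, held 40.4% of its CO UMIs, and 1 NC profile, also among the 11 and without Slc6a13, held 35.9% of its NC UMIs. Within the 62 profiles it lay mostly in those with Slc6a13. Among these it was at 391 CPM in 3 NC and 3019 CPM in 7 CO profiles, and in the profiles without Slc6a13 it was at 26.4 CPM in NC and 4.16 CPM in CO.

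The 12 lowest ratios were nearly all of genes that oligodendrocytes express, many of them for myelin. Among them were Mal, Ncam2, Pllp, Mbp, Pex5l, Mobp, Grm3, Tubb4a, Ermn and Ugt8, and 90.3% to 97.3% of their NC UMIs lay in the 3 NC profiles with oligodendrocyte markers. Mal, which encodes a membrane protein of myelin, was at 791, 176 and 846 CPM in the NC libraries and at 0, 3.96 and 5.51 CPM in the CO libraries, a log2 ratio of -7.73 (-10.78 to -5.87). The CO libraries held almost none of it. Without the 11 profiles it had fewer than 30 UMIs over both groups and was not compared, and in microglia, which do not make myelin, it was at -1.45. Mobp and Pex5l were at 0 UMIs in CO. Cxcl10, an interferon-induced chemokine, was not of this kind. It was at 129, 37.0 and 185 CPM in the NC libraries and at 0, 5.94 and 5.51 CPM in the CO libraries, a log2 ratio of -5.39 (-8.45 to -3.50). It was detected in 8 NC profiles and 1 CO profile. It was at -4.73 without NC replicate 3 and at -4.33 without CO replicate 2. With each profile weighted equally, Mal was at -4.52 and Cxcl10 at -4.70.

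The choice was repeated over the 62 profiles, after seeing these values. The rule for naming genes was then met by 234 of 5926 genes (3.95%), against 291 over all profiles (4.17%), and 164 genes met it in both. Of the 12 highest, 9 were named before, and Mt2A, Rbm18 and Sct were added. For Sct, 1 profile held 67.3% of the CO UMIs, and its per-profile median was 0 CPM in both groups. The lower genes that this choice added follow, with log2 ratios over the 62 profiles.

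Arih1, which encodes a ubiquitin ligase, had the largest level among them. It was at 1558, 1424 and 1905 CPM in the NC libraries and at 158, 169 and 197 CPM in the CO libraries, a log2 ratio of -3.15 (-3.45 to -2.85), and was detected in 33 of 37 NC and 20 of 25 CO profiles. G0s2, an inhibitor of fat breakdown, was at -3.77 (-5.11 to -2.68), with 43.3% of its NC UMIs in 1 profile. Egr2, an immediate early transcription factor, was at -3.72 (-4.87 to -2.75), against -1.81 over all profiles. Chsy3, which builds chondroitin sulfate chains, was at 239, 243 and 203 CPM in the NC libraries and at 15.4, 20.6 and 69.5 CPM in the CO libraries, a log2 ratio of -2.77 (-3.49 to -2.11).

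Ntrk3, a neurotrophin receptor gene, was at -2.60 (-3.33 to -1.94), against -1.32 over all profiles. Zc3hav1, which encodes an antiviral zinc finger protein, was at -2.11 (-2.51 to -1.72). Bmp1, the protease that cleaves procollagen, was at -1.99 (-2.80 to -1.25). Mindy2, Ptprd and Elmsan1 were at -2.04, -2.02 and -1.94, and over all profiles Mindy2 was at -1.63 and Ptprd at -3.36. Gas6, a ligand that bridges dying cells to phagocytes, was at -2.13 over the 62 profiles but at 0.51 over all 73, so its direction rests on which profiles are counted. Over the 62 profiles, 1 profile held 54.1% of its NC UMIs. Over all 73 profiles, leaving out CO replicate 3 put Egr2 at -2.59 and Chsy3 at -4.07, and leaving out CO replicate 2 put G0s2 at -4.55. Library values of the named genes did not overlap by choice.

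**Figure D4:**
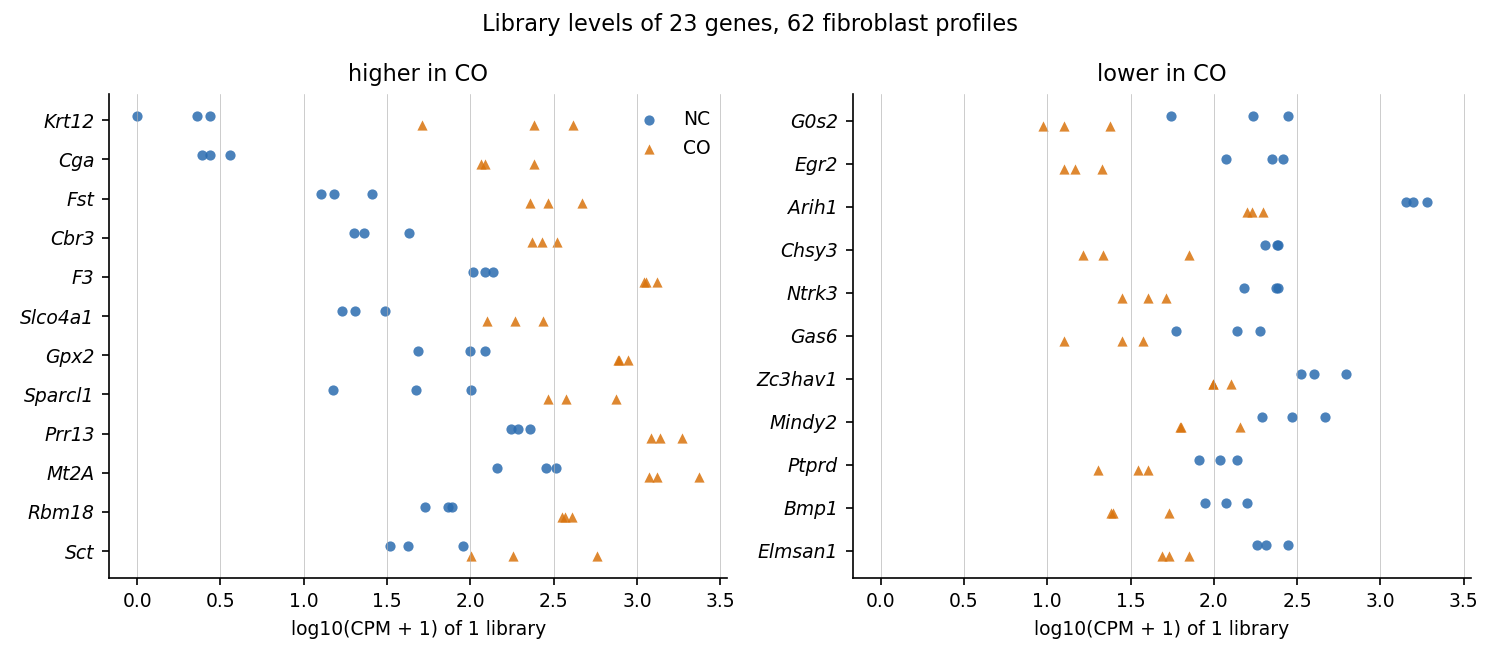
Levels of 23 genes named over the 62 profiles, as log10(CPM + 1), in each of the 3 NC (blue circles) and 3 CO libraries (orange triangles), with 12 genes higher in CO on the left and 11 lower on the right. The CO and NC symbols of each gene are apart, as the rule required; for Arih1 they lie at 158 to 197 CPM in CO and 1424 to 1905 CPM in NC.

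Collagen genes, the main matrix product of these cells, were mostly lower in CO. The list leaves out Col1a1 and Col1a2, which the rule used, and type IV, and holds fibrillar, fibril-associated, type VI, short-chain and other collagens. Of 14 compared, 11 were lower (median log2 ratio -0.49, against 0.0035 over all genes, of which 50.3% were higher). At least 2-fold lower were 2 and higher 1, near the shares of 9.67% and 6.11% over all genes. The counting interval lay wholly below 0 for only 4 of the 14 and wholly above 0 for 1. Col3a1, the collagen of elastic tissues, was at 1464, 1894 and 1214 CPM in the NC libraries and at 339.8, 824 and 674 CPM in the CO libraries, a log2 ratio of -1.49 (-1.66 to -1.33). Col14a1 and Col5a2, which regulate fibril width, were at -1.05 (-1.52 to -0.60) and -0.88 (-1.31 to -0.46). Col8a1, a short-chain collagen gene, went the other way at 1.64 (1.37 to 1.92), with 1 CO library at 192 CPM below the highest NC library at 211 CPM, and it was at 0.69 without CO replicate 3. In the 62 profiles the list's median was -0.34, and 11 of 13 were lower. Scaled by total counts, which put the median of all genes at -0.21, the medians of the basement membrane, retinoic acid, solute carrier, immediate early, heat shock, stress response and heme lists described below turned from above 0 to below 0.

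Genes that process collagen shared this direction in part, with 15 of 24 lower (median -0.19). Creb3l1, a transcription factor that drives collagen secretion, was at 149, 181 and 219.6 CPM in the NC libraries and at 60.0, 47.5 and 56.5 CPM in the CO libraries, a log2 ratio of -1.78 (-2.33 to -1.27). P3h3, a prolyl hydroxylase gene, was at -1.52 (-2.22 to -0.87), and P4ha2, another, at 1.03 (0.75 to 1.31). Small proteoglycans other than Dcn, Lum and Ogn were lower in 5 of 9 cases (median -0.22), with Gpc6, a glypican gene, at -1.50 (-1.95 to -1.07). Matrix glycoproteins were lower in 17 of 31 cases (median -0.35). Mgp was at 3534, 7417 and 5319 CPM in the NC libraries and at 1438, 2799 and 2129.8 CPM in the CO libraries, a log2 ratio of -1.47 (-1.56 to -1.39). Among the profiles without Slc6a13, each of which held Mgp, the summed level was 7762 CPM for NC and 2470.1 CPM for CO.

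Basement membrane genes had no common direction. Of 11, 6 were higher (median 0.20), and without the 11 profiles 4 were (median -0.15). Lama2, the laminin chain of vessel and pial basement membranes, was at -1.20 (-1.47 to -0.93), and Lamc1 at 0.64 (0.25 to 1.04). Col4a1 was at 1.15 but at -0.13 without the 11 profiles. Matrix proteases and their inhibitors were higher in 13 of 27 cases (median -0.042). The inhibitor genes Timp1 and Timp4 were at 0.94 (0.82 to 1.06) and 1.12 (0.68 to 1.57), and the protease genes Mmp16 and Adamts12 at -1.22 (-1.71 to -0.75) and -1.08 (-1.36 to -0.81).

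Leptomeningeal genes were higher in 14 of 29 cases (median -0.033), with 5 at least 2-fold lower (9.67% of all genes were) and 0 at least 2-fold higher (6.11%). Cdh11, the cadherin of mesenchymal cells, was at 601, 418 and 487 CPM in the NC libraries and at 166, 204 and 167 CPM in the CO libraries, a log2 ratio of -1.66 (-1.96 to -1.37). Twist1, a mesenchymal transcription factor, was at -1.42 (-1.78 to -1.07), and S100a6, a calcium-binding protein gene, at 0.85 (0.75 to 0.95). Nnat, which encodes neuronatin, was at 440.3, 1591 and 71.6 CPM in the NC libraries and at 81.5, 107 and 116 CPM in the CO libraries, so the groups overlapped, and 1 profile held 84.7% of its NC UMIs. Its log2 ratio was -2.51 (-2.86 to -2.18), and -0.42 with stricter limits on markers of other cells. The lists of dural, arachnoid, and pial and perivascular genes each had 4 of 9 members higher, with median log2 ratios of -0.0051, -0.012 and -0.047.

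Retinoic acid genes were higher in 7 of 14 cases (median 0.029). Aldh1a2 was at -1.01 (-1.46 to -0.57), but it lay in 5 NC and 7 CO profiles and turned to 0.18 without NC replicate 1 and to -1.59 without CO replicate 2. Cyp1b1, an oxidase that can make retinoic acid, was at 1.08 (0.75 to 1.43). Solute carrier genes were higher in 14 of 26 cases (median 0.071). Slc2a1, a glucose transporter of the blood-brain barrier that hypoxia induces, was at 66.3, 154 and 94.3 CPM in the NC libraries and at 195, 228 and 218 CPM in the CO libraries, a log2 ratio of 1.25 (0.89 to 1.62). Slc6a6, a taurine transporter gene, was at -1.80 (-2.56 to -1.11).

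Growth factors and their binding proteins were higher in 28 of 48 cases (median 0.30), against 50.3% of all genes compared. Without the 11 profiles they were higher in 21 of 44 (median -0.084), against 50.5% of all genes. Beside Fst, Ccn2, a matrix-bound growth factor, was at 162, 91.3 and 131 CPM in the NC libraries and at 175, 549 and 517 CPM in the CO libraries, a log2 ratio of 1.77 (1.46 to 2.08), and was at 0.84 with each profile weighted equally. Rspo2, a Wnt enhancer gene, was at 97.0, 131 and 78.8 CPM in the NC libraries and at 46.1, 11.9 and 37.2 CPM in the CO libraries, a log2 ratio of -1.88 (-2.61 to -1.20). Igfbp7, a binding protein gene, was at 1.53 in all profiles, at -1.03 without the 11 and at 0.38 without CO replicate 3.

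Targets of the hypoxia-inducible factor, which acts when oxygen is short, were more often higher. Of 28, 20 were higher (71.4%, against 50.3% of all genes compared), 5 of them at least 2-fold (6.11% of all genes were), and the median was 0.49. Ldha, lactate dehydrogenase A, was at 122, 169 and 135 CPM in the NC libraries and at 358, 269 and 318 CPM in the CO libraries, a log2 ratio of 1.16 (0.85 to 1.47), and in pericytes, endothelial cells and microglia its log2 ratio was 1.08, 1.55 and 0.27. Bhlhe40 went the other way, at -1.18 (-1.76 to -0.63). Without the 11 profiles the list's median was 0.36, with 14 of 24 higher (50.5% of all genes were).

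Complement genes were higher in 8 of 12 cases (median 0.77), against 50.3% of all genes compared. Without the 11 profiles 7 of 10 were (median 0.50). At least 2-fold higher were 4 of the 12 (6.11% of all genes were) and lower 1 (9.67%), none of which had the 100 UMIs needed to be named. Clu, which blocks the terminal complex, was at 796, 1696 and 1229 CPM in the NC libraries and at 2832, 2157 and 1854 CPM in the CO libraries, a log2 ratio of 0.88 (0.78 to 0.99). The regulators Serping1 and Cd59 were at 0.83 (0.56 to 1.09) and 0.71 (0.42 to 1.00). For Serping1, CO replicate 1 at 219.9 CPM lay below NC replicate 2 at 242 CPM. C1s went the other way, at -0.32 (-0.66 to 0.013). Genes of interferon response and antigen presentation were lower in 19 of 25 cases (median -0.39), against 50.3% of all genes higher, with 5 at least 2-fold lower (9.67% of all genes) and 0 at least 2-fold higher (6.11%). Igtp, an interferon-induced GTPase, was at 150.4, 128 and 111 CPM in the NC libraries and at 30.8, 51.5 and 52.4 CPM in the CO libraries, a log2 ratio of -1.60 (-2.20 to -1.03), and Irf1, a transcription factor of the response, at -0.93 (-1.19 to -0.68). The median of this list was 0.13, -0.00084 and 0.17 in pericytes, endothelial cells and microglia. These medians were over the 14, 37 and 38 members compared there, so not over the same genes as in the fibroblasts.

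Cytokines, chemokines and NF-kB targets were higher in 17 of 36 cases (median -0.038). Has1, which makes hyaluronan, was at 57.4, 24.7 and 58.5 CPM in the NC libraries and at 149, 246 and 223 CPM in the CO libraries, a log2 ratio of 1.97 (1.47 to 2.49), and Tnfaip6, which binds hyaluronan, was at 1.85 (1.19 to 2.54). Tnfrsf12a, the receptor of the cytokine TWEAK, was at 2.63 (1.92 to 3.40), and at 1.83 without the 11 profiles. Immediate early genes were higher in 21 of 39 cases (median 0.075, and -0.093 without the 11 profiles) and heat shock genes in 14 of 25 (median 0.029), with Hspb1, a small heat shock protein gene, at 1.43 (1.27 to 1.58). Genes of the integrated stress and unfolded protein responses were higher in 19 of 31 cases (median 0.17), glucocorticoid-induced genes in 13 of 21 (median 0.26) and heme, iron and antioxidant genes in 23 of 39 (median 0.088). Of all genes compared, 50.3% were higher.

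Prostaglandin and lipid genes were higher in 10 of 21 cases (median -0.051, and 0.12 without the 11 profiles). Apoe, the lipid carrier, was at 2559, 2976 and 2349 CPM in the NC libraries and at 7167, 11738 and 6935 CPM in the CO libraries, a log2 ratio of 1.47 (1.41 to 1.54). It was higher in CO both in the profiles with Slc6a13 (9330.3 and 31083 CPM) and in those without (2745 and 5499.7 CPM). Genes of ribosomal proteins were higher in 64 of 69 cases (92.8%, against 50.3% of all genes compared; median 0.38). Scaled by total counts 51 of 69 were. Contractile and TGF-beta response genes were higher in 16 of 26 cases (median 0.29), against 50.3% of all genes compared. Tagln, Tpm2 and Acta2 led them at 3.63, 3.61 and 3.52. Over the 62 profiles the median was -0.34, with 9 of 21 higher, Tagln was at -2.47, and Tpm2 and Acta2 had too few UMIs to be compared.

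**Figure D5:**
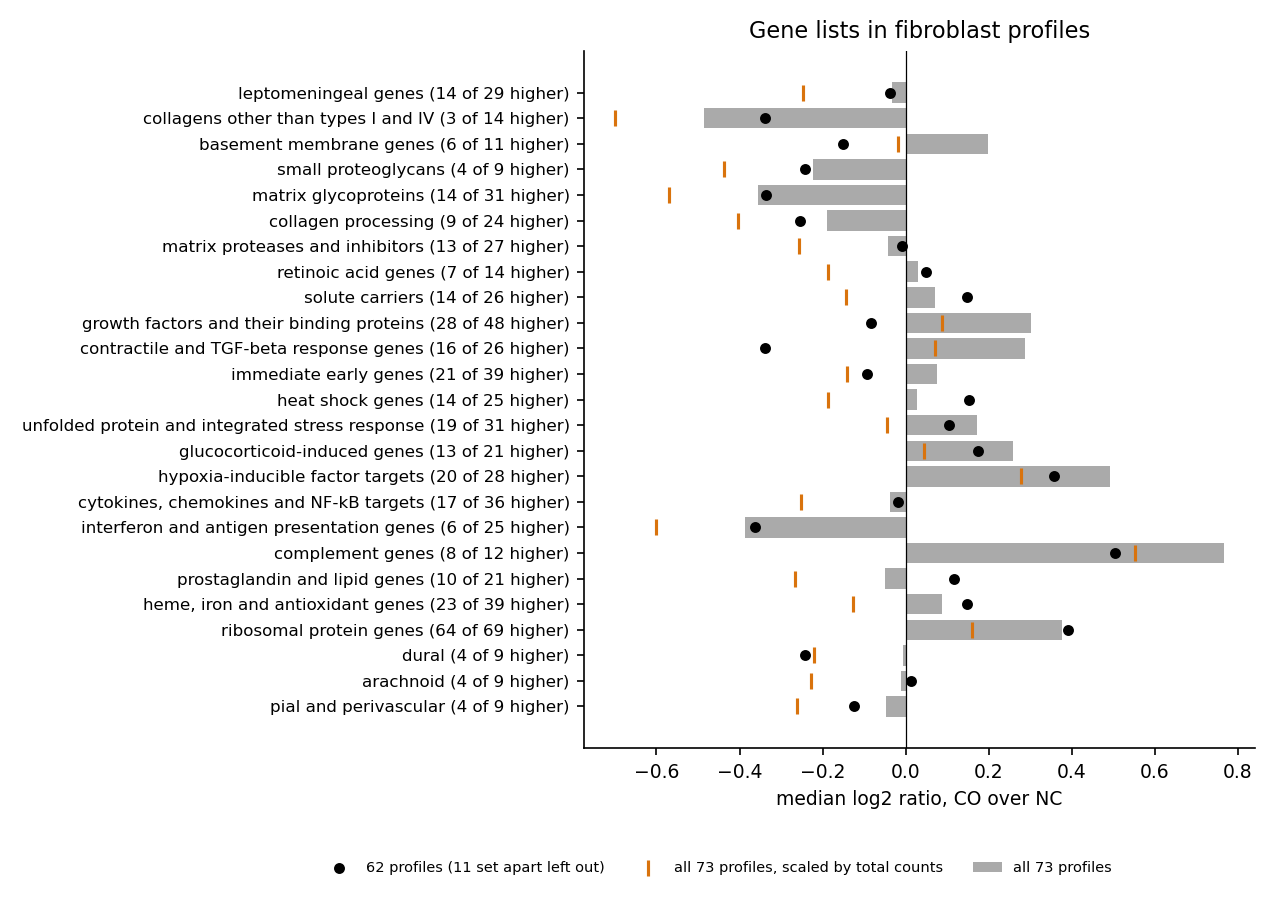
Median log2 ratio of CO over NC for 25 gene lists in the fibroblasts, with the number of members higher in CO beside each name. Bars show all 73 profiles, black dots the 62 left after setting apart the 11, and orange ticks all profiles scaled by total counts; collagens other than types I and IV lie at -0.49 and -0.34, complement genes at 0.77 and 0.50, and the contractile list changes sign.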

How the data were processed

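Gene counts per barcode of 6 libraries (3 NC, 3 CO) of rat cerebral hemisphere were used as deposited. Per the submitters' processing notes, the authors made these UMI counts with Cell Ranger against Rnor_6.0, and filters applied before deposit are not stated. The libraries held 6331 to 7953 barcodes and 39494470 to 47322264 UMIs.

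The members and gene lists were chosen with earlier results of these data known. Joining barcodes into profiles at a correlation of 0.68 departed from the planned sums over every barcode, and was chosen after correlations from 0.5 to 0.72 were tried. The matching was checked on simulated copies whose noise was modelled on the data. Profiles were means of member barcodes, summed per group and scaled with TMM (edgeR 4.0.16, R 4.3.3). Library levels are sums over member barcodes scaled in the same way. Genes with at least 30 UMIs over both groups were compared, and intervals are exact conditional binomial intervals at 95%. Sums for the fibroblast comparison were also simulated with counting error only, with 6449 genes left unchanged and 100 each at 2-fold and 4-fold. The interval covered the true ratio in 95.8%, 96% and 95% of cases. Spread between barcodes or profiles was not simulated, so whether the interval covers it was not tested. Libraries of a group share profiles, so the planned edgeR quasi-likelihood test over libraries gives no valid p-value, and its counts stand in the closing section only.

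Genes named by value had at least 100 UMIs, detection in 10% of member barcodes of the higher group, a 2-fold difference and library values that did not overlap. The 12 highest and 12 lowest were taken, leaving out the 7 genes of the rule and symbols that are only identifiers. Other genes are members of the lists: any of the fibroblast lists, and of every other list the 4 with the largest ratio among those with 100 UMIs. The 1% limit on markers of other cells, the second naming over 62 profiles, the split by Slc6a13 and 3 alternatives were added after seeing the data. The pattern for ribosomal protein genes was corrected after a kinase gene was seen among its matches. Trial clusterings were also looked at and are not used. Comparison cells were barcodes with at least 2 of 4 pericyte, 3 of 5 endothelial or 3 of 4 microglial markers and at most 1 of the others. Doublets were kept in the values reported. Scrublet marked 2 barcodes each in CO 1 and CO 3, under 0.5%, so the alternative without doublets left out the highest 6% of scores there. Promoter windows came from the RefSeq GRCr8 table, matched by symbol. Some genes are not reported here.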

Additional observations from a re-analysis of the deposited data

Results flagged for a closer look

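Cbr3 and Sparcl1 were singled out because every CO library lay on one side of every NC library in the fibroblasts and on the opposite side in microglia. Cbr3 had a log2 ratio of 3.44 in fibroblasts and -1.12 (-1.78 to -0.48) in microglia, where its level was 4.65 CPM in NC and 2.12 CPM in CO. Sparcl1 was at 2.64 in fibroblasts and at -0.24 (-0.47 to -0.0053) in microglia, with 23.4 and 19.9 CPM there, and 2 CO profiles with smooth muscle markers held 40.4% of its CO UMIs in fibroblasts. Its direction also differed within the 62 profiles. It was at 391 CPM in NC and 3019 CPM in CO in the profiles with Slc6a13 (3 NC, 7 CO). In those without, it was at 26.4 and 4.16 CPM, lower in CO as in microglia. The differences between the cell types were not tested.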

How the results depend on the processing

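The ratio of fibroblast shares stayed below 1 under each alternative tried, from 0.68 with barcodes thinned to 1000 UMIs to 0.83 with stricter limits on other cells' markers, and the interval excluded 1 only with every barcode counted (0.72, 0.54 to 0.97). Genes at least 2-fold higher numbered 763 with every barcode counted, 31 after thinning, 275 scaled by total counts and 783 with a minimum of 10 counts, against 426. Genes at least 2-fold lower numbered 1251 with every barcode counted, 19 after thinning and 1352 with a minimum of 10 counts, against 674. Thinning leaves fewer genes with 30 counts, and a gene has a value in a setting only with 30 counts there, a rule set after thinned values of Pllp, Ugt8, Egr2 and Bmp1 were seen to turn on few counts. Total counts left 6 of the lists with a median above 0. Of single-gene values, 1418 kept within their interval, 193 moved and 10 reversed. With 4 of 7 markers, Igfbp7 was at -1.23, Tagln at -3.66 and Tpm2 at -2.33. Without the 11 profiles, Col4a1 was at -0.13, Igfbp7 at -1.03 and Tagln at -2.47. Stricter limits put Igfbp7 at -0.20 and Aldh1a2 at 2.93. Aldh1a2 was at 0.13 with profiles weighted equally, and from -1.59 to 0.18 leaving out 1 library at a time. List medians of at least 0.2 in size reversed with 4 of 7 markers for small proteoglycans (0.19), growth factors (-0.053) and contractile genes (-0.33), after thinning for matrix glycoproteins (0.14) and contractile genes (-0.34), and without the 11 profiles for growth factors (-0.084) and contractile genes (-0.34). Of smaller medians, 4 changed sign without the 11 profiles (basement membrane to -0.15, immediate early to -0.093, prostaglandin and lipid to 0.12, arachnoid to 0.013), 8 with profiles weighted equally and 7 with 4 of 7 markers. Single-gene ratios moved by over 1.5 times for 29 genes with profiles weighted equally, 21 with stricter limits, 20 with 4 of 7 markers and 12 without the 11 profiles. The cause was not tested. Treating the libraries as separate samples, which they are not, edgeR's quasi-likelihood test called 760 of 9342 genes, DESeq2 768, and leaving out 1 library gave 266 to 667. With the replicate number as a block it called 743. Deviations of same-numbered libraries from their group means correlated at 0.015, 0.0093 and 0.075 over genes, and no label ties a number to a shared source, so the numbers were not taken as pairs.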
